A study of Rattus norvegicus with 30 samples.

Results

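Messenger RNA of 10 circadian clock genes was followed in rat plantaris tendons that were uninjured or had been cut and sutured. The genes were chosen by symbol from a list of core clock and clock output genes (Arntl, Npas2, Per1, Per2, Per3, Nr1d1, Nr1d2, Dbp, Tef and Ciart). They were chosen with earlier results of these data known, so the number of them called is a description. Other core clock genes, among them Clock, Cry1 and Cry2, are not in this set and are given separately below. All 10 were present among the 13124 genes of the deposited count table, and all 10 were among the 12558 genes that averaged 3 CPM (counts scaled to the size of the library) or more in any group and were tested.

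The clock is a feedback loop of transcription that runs in most cells of the body. ARNTL (also called BMAL1) pairs with CLOCK or its relative NPAS2, binds E-box elements and switches on the Per and Cry genes, Ciart, the nuclear receptors Nr1d1 and Nr1d2, and the output factors Dbp and Tef. The PER and CRY proteins and CIART then hold the activator pair back, and NR1D1 and NR1D2 repress Arntl and Npas2 through ROR elements, so that over the day the activators and their targets peak at different hours. In skeletal muscle and tendon, as in other peripheral tissues, the clock is known to set daily rhythms of many tissue genes.

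The rats were male Sprague Dawley animals, 3 months old, and RNA was taken from the right plantaris tendon of separate rats, cut just beyond the junction with the muscle. Control tendons (n = 3) had neither surgery nor compound. The other 27 tendons, called repaired here, had a full tenotomy with suture repair on both legs and were collected 7 days (7D) or 21 days (21D) later. Rats received GSK2894631A, an inhibitor of the hematopoietic prostaglandin D synthase, by oral gavage 2 times daily at 0 mg/kg (vehicle), 2 mg/kg or 6 mg/kg, which gave 7D 0 mg/kg (n = 5), 7D 2 mg/kg (n = 4), 7D 6 mg/kg (n = 3), 21D 0 mg/kg (n = 5), 21D 2 mg/kg (n = 5) and 21D 6 mg/kg (n = 5) tendons. The control rats had neither the operation nor the test compound, and whether they were given vehicle by gavage is not stated in the sources used here. The hour of day at which tendons were collected is not given in the sources used here, and each tendon gives 1 time point of its rat, so the values are levels and not rhythms.

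Libraries held 12405741 to 49909374 counts. A count of 3 in a library, taken as the floor, corresponds to 0.0601 to 0.242 CPM, and this covers counting error only. The 8 tenocyte markers were present in all tendons and summed to 0.538% to 5.69% of counts. Control tendons also differed in make-up from repaired tendons. The 24 listed skeletal muscle genes made up 18.3% to 26.1% of counts in control tendons, 0.164% to 1.21% at 7D 0 mg/kg, 0.00781% to 0.0107% at 7D 2 and 7D 6 mg/kg and 0.0625% to 9.23% in 21D tendons. The 8 leukocyte markers made up 0.0110% to 0.0717% of counts in control tendons and 0.120% to 0.803% in repaired tendons. The 4 listed endothelial markers made up 0.00983% to 0.0309% and 0.0214% to 0.0679%, and the 5 adipocyte markers 0.0114% to 0.0390% and 0.0154% to 0.249%, in control and repaired tendons. The part of these last 3 lists in the differences of the clock genes was not tested. In such bulk RNA, fewer cells of a type and less RNA per cell cannot be told apart.

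Promoter sequences are shown for 4 of the genes because the loop described above acts through short elements near the start of transcription. RefSeq promoter entries (build GRCr8) matched all 10 genes, with Arntl listed there as Bmal1. The 250 bases before each start were searched on both strands for the E-box CACGTG, the E-prime box CACGTT, the D-box (TTATGTAA or TTACGTAA, bound by DBP and TEF) and the ROR element (RORE). The E-box letters were found in Ciart, Nr1d1 and Tef and in 5.59% of all 33469 promoters, and the E-prime letters in Nr1d1 and Per2 and in 4.07% of all promoters. The D-box letters were found in Per2 and in 0.932% of all promoters, and the RORE in Arntl and in 0.317% of all promoters. The sequences run 5′ to 3′ on the gene's own strand and end at the base before the start, and capitals mark the motifs.
Arntl, chr1:176766078-176766327, plus strand, with the RORE in capitals: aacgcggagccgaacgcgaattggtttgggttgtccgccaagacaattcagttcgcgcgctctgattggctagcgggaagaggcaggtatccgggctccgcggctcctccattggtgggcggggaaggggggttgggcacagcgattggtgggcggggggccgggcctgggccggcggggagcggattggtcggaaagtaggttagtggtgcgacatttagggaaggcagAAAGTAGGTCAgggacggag
Ciart, chr2:186112247-186112496, minus strand, with 3 E-boxes in capitals: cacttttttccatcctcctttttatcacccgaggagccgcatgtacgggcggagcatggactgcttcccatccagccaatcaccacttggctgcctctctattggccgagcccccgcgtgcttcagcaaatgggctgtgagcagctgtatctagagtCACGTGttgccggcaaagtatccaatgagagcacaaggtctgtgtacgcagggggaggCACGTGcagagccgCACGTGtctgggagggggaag
Nr1d1, chr10:84229455-84229704, minus strand, before 1 of its 2 listed starts, with the E-box in capitals: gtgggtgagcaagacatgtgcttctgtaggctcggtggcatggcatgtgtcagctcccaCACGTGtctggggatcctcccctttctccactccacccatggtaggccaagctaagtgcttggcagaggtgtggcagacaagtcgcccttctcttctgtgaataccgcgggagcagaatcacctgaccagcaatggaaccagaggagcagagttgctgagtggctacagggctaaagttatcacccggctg
Per2, chr9:99496994-99497243, minus strand, with the D-box and, nearer the start, the E-prime box in capitals: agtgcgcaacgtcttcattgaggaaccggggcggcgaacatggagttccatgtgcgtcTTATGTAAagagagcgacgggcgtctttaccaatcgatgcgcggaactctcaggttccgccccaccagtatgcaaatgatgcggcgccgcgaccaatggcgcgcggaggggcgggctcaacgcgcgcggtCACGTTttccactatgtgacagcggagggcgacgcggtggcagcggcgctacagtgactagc
In Ciart the E-boxes began 93, 35 and 21 bases before the start, and in Arntl the RORE began 20 bases before it. A match of letters is a description and does not show a bound site.

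The activators and the other clock genes lay on opposite sides of the control level in repaired tendons. Arntl and Npas2 were higher than in control tendons in all 6 repaired groups, and Per2, Per3, Nr1d1, Nr1d2, Dbp, Tef and Ciart were lower in all 6 (edgeR quasi-likelihood test, Benjamini-Hochberg adjusted p under 0.05 over 12558 genes). Per1 was lower in 3 of the 6 groups. Much of the transcriptome differed in these comparisons, since 24.4% of all genes tested were higher in all 6 groups and 27.7% were lower in all 6. Of the 10 genes, 9 were called at 7D 0 mg/kg, 9 at 7D 2 mg/kg, 10 at 7D 6 mg/kg, 10 at 21D 0 mg/kg, 10 at 21D 2 mg/kg and 9 at 21D 6 mg/kg, each time with 2 higher. Of all genes tested, the same rule called 35.8%, 35.8%, 34.1%, 32.2%, 33.8% and 30.8% higher and 35.6%, 34%, 33.8%, 33.7%, 35.3% and 33.3% lower in these comparisons. The median log2 fold change of the 10 genes was -1.67, -1.22, -1.46, -1.34, -1.13 and -1.33 in the same order, against 0.05, 0.05, 0.04, 0.03, 0.01 and 0.01 over all genes tested. The 6 comparisons share the same 3 control tendons, and p-values describe the spread between these rats. The paper, which also asked for a 1.5-fold difference, reported far fewer differing transcripts at 21D 0 mg/kg than at 7D 0 mg/kg against control. Here the shares called in these 2 comparisons were close, and the reason for the difference from the paper was not tested.

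**Figure D1:**
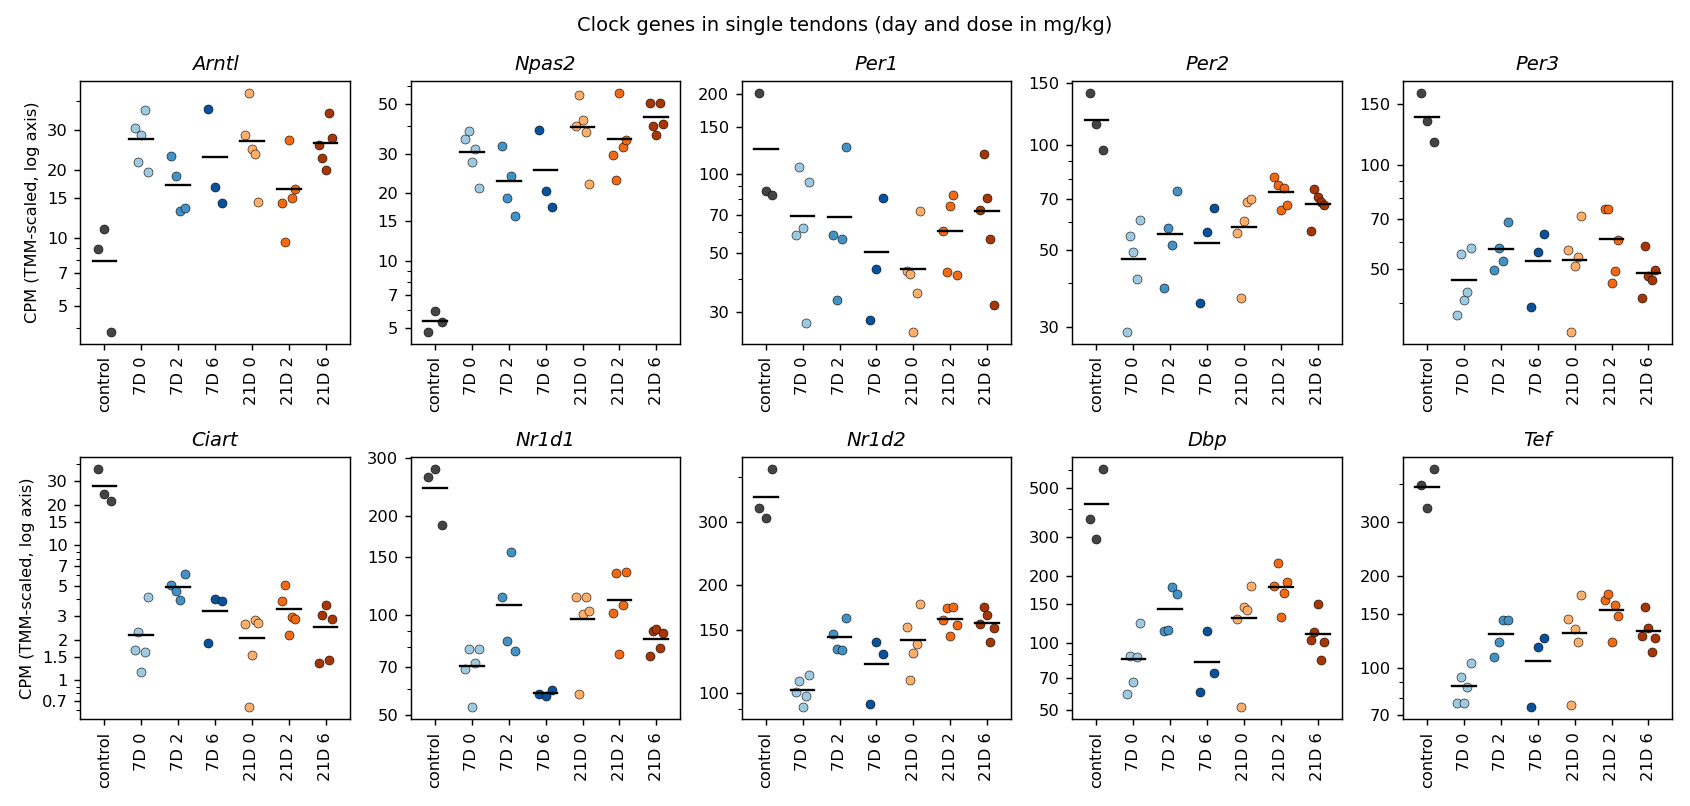
Level of each clock gene in every tendon, in CPM scaled with TMM factors on a log axis, by group (day after repair and dose in mg/kg). Points are tendons and lines are group means. Arntl and Npas2 are lowest in control tendons, and all repaired tendons lie below all control tendons for Per2, Per3, Ciart, Nr1d1, Nr1d2, Dbp and Tef.

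Npas2 encodes the partner that can stand in for CLOCK, and it had the larger rise of the activators. The control tendons held 4.81, 5.93 and 5.31 CPM of Npas2. At 7 days the 7D 0 mg/kg tendons held 35.0, 38.0, 27.6, 31.7 and 21.2 CPM, the 7D 2 mg/kg tendons 32.5, 19.1, 23.8 and 15.8 CPM and the 7D 6 mg/kg tendons 38.3, 20.5 and 17.3 CPM. At 21 days the 21D 0 mg/kg tendons held 40.1, 55.1, 42.3, 37.6 and 22.0 CPM, the 21D 2 mg/kg tendons 29.7, 22.9, 56.1, 32.2 and 34.4 CPM and the 21D 6 mg/kg tendons 50.4, 39.9, 36.5, 50.4 and 40.8 CPM. All 27 repaired tendons lay above all 3 control tendons, as did 18.6% of all genes tested, and the lowest repaired value was a 7D 2 mg/kg tendon. The log2 fold change against control was 2.52 ± 0.33 (SE) at 7D 0 mg/kg and 3.02 ± 0.34 at 21D 6 mg/kg, which are 5.72-fold and 8.13-fold higher levels, with adjusted p of 2.74e-07 and 6.74e-08 (edgeR). The other 4 groups had log2 fold changes of 2.09, 2.25, 2.88 and 2.71, and all were called.

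Arntl encodes the activator common to both pairs. Its control tendons held 8.87, 10.9 and 3.84 CPM. At 7 days the 7D 0 mg/kg tendons held 30.5, 21.6, 28.4, 36.6 and 19.5 CPM, the 7D 2 mg/kg tendons 22.8, 18.8, 13.1 and 13.5 CPM and the 7D 6 mg/kg tendons 37.0, 16.7 and 14.2 CPM. At 21 days the 21D 0 mg/kg tendons held 28.3, 43.6, 24.6, 23.4 and 14.4 CPM, the 21D 2 mg/kg tendons 14.2, 9.54, 26.9, 15.0 and 16.4 CPM and the 21D 6 mg/kg tendons 25.6, 22.5, 19.9, 35.4 and 27.5 CPM. The lowest repaired tendon, replicate 2 of the 21D 2 mg/kg group, fell inside the control range, and the other 26 lay above it. Arntl was 3.42-fold higher at 7D 0 mg/kg (log2 fold change 1.78 ± 0.39, edgeR adjusted p = 0.00026) and 3.36-fold higher at 21D 0 mg/kg (1.75 ± 0.39, adjusted p = 0.000378). The smallest rises were at 2 mg/kg, with 1.10 ± 0.39 at 7 days (edgeR adjusted p = 0.0155) and 1.04 ± 0.38 at 21 days (adjusted p = 0.0174). Without control replicate 4, the control with the lowest Arntl, these became 0.74 (adjusted p = 0.125) and 0.67 (adjusted p = 0.155), and without replicate 3 of the 21D 2 mg/kg group the latter was 0.79 (adjusted p = 0.0611, edgeR).

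**Figure D2:**
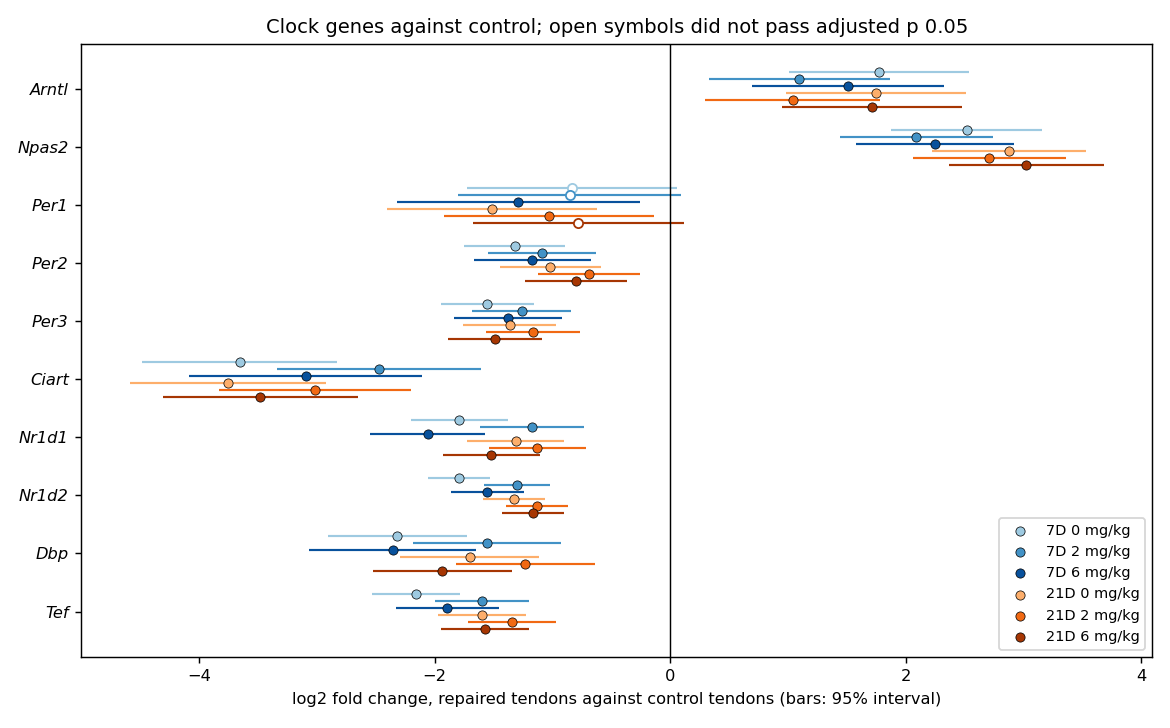
Log2 fold change of each clock gene in the 6 repaired groups against control tendons, with approximate 95% intervals. These are normal intervals from an SE derived from the log2 fold change and the F statistic of the edgeR test, and can differ from the test. Filled points passed an adjusted p of 0.05. Arntl and Npas2 lie to the right of 0 in all groups, the other genes lie to the left, and the open points are Per1 at 7D 0, 7D 2 and 21D 6 mg/kg.

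Ciart, a repressor of the ARNTL and CLOCK pair and a direct target of it, had the largest fold difference of the 10 genes in each of the 6 comparisons. The control tendons held 37.1, 24.0 and 21.4 CPM. At 7 days the 7D 0 mg/kg tendons held 1.67, 2.28, 1.15, 1.62 and 4.17 CPM, the 7D 2 mg/kg tendons 5.12, 4.63, 3.93 and 6.17 CPM and the 7D 6 mg/kg tendons 1.89, 4.01 and 3.86 CPM. At 21 days the 21D 0 mg/kg tendons held 2.60, 0.629, 1.54, 2.78 and 2.66 CPM, the 21D 2 mg/kg tendons 3.90, 5.12, 2.18, 2.93 and 2.86 CPM and the 21D 6 mg/kg tendons 1.35, 3.04, 3.65, 1.43 and 2.87 CPM. All repaired tendons lay below all control tendons, which held for 22.1% of all genes tested. The lowest tendon, replicate 2 of the 21D 0 mg/kg group, was also the tendon with the highest Arntl of all 30. Ciart was 12.6-fold lower at 7D 0 mg/kg (log2 fold change -3.65 ± 0.42, edgeR adjusted p = 4.64e-08) and 13.5-fold lower at 21D 0 mg/kg (-3.75 ± 0.43, adjusted p = 8.11e-08). The smallest difference was -2.47 ± 0.44 at 7D 2 mg/kg.

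The Per genes encode the PERIOD repressors, which act together with the CRY proteins. The control tendons held 161, 134 and 116 CPM of Per3. At 7 days the 7D 0 mg/kg tendons held 37.0, 55.2, 40.7, 43.0 and 57.6 CPM, the 7D 2 mg/kg tendons 49.7, 57.6, 52.8 and 68.6 CPM and the 7D 6 mg/kg tendons 38.9, 56.2 and 63.2 CPM. At 21 days the 21D 0 mg/kg tendons held 56.7, 33.1, 51.0, 54.3 and 71.0 CPM, the 21D 2 mg/kg tendons 74.7, 74.4, 45.7, 49.6 and 60.7 CPM and the 21D 6 mg/kg tendons 41.5, 58.5, 47.7, 46.6 and 49.9 CPM. The highest repaired tendons, replicates 1 and 2 of the 21D 2 mg/kg group, were below the lowest control, and Per3 had log2 fold changes of -1.55 to -1.17 (edgeR adjusted p 2.82e-07 to 1.87e-05). Per2 stood at 141, 115 and 96.7 CPM in the 3 control tendons. Its 7-day levels were 29.1, 54.9, 49.2, 41.3 and 61.0 CPM at 0 mg/kg, 38.9, 57.7, 51.4 and 73.9 CPM at 2 mg/kg and 35.3, 56.0 and 65.7 CPM at 6 mg/kg. The 21-day levels were 55.7, 36.4, 60.2, 68.5 and 69.8 CPM at 0 mg/kg, 81.0, 76.9, 64.9, 75.1 and 67.4 CPM at 2 mg/kg and 56.6, 74.4, 71.0, 68.5 and 67.2 CPM at 6 mg/kg. Again no repaired tendon reached a control tendon. Its log2 fold change ran from -1.32 at 7D 0 mg/kg to -0.69 at 21D 2 mg/kg, and Per2 was called in all 6 groups (edgeR adjusted p 9.67e-06 to 0.00806). Per1, which is also switched on quickly by light, stress hormones and cyclic AMP, was the exception.

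The control tendons held 202, 86.0 and 82.8 CPM of Per1, so that 1 control stood apart from the other two. Repaired tendons ranged from 25.2 to 126 CPM, and 22 of 27 lay below the lowest control. Per1 was called lower at 7D 6 mg/kg (-1.29 ± 0.53, edgeR adjusted p = 0.0336), 21D 0 mg/kg (-1.51 ± 0.45, adjusted p = 0.0053) and 21D 2 mg/kg (-1.03 ± 0.45, adjusted p = 0.0475). At 7D 0, 7D 2 and 21D 6 mg/kg its log2 fold changes were -0.83, -0.85 and -0.78 with adjusted p of 0.103, 0.118 and 0.137 (edgeR). Without control replicate 2, the control with the highest Per1, none of these calls was left, and the 3 called log2 fold changes were -0.79, -1.02 and -0.56 with adjusted p of 0.212, 0.0742 and 0.33. The 7D 6 mg/kg call was also lost without replicate 1 or 4 of that group (adjusted p 0.143 and 0.0924), and the 21D 2 mg/kg call without replicate 1, 2 or 5 of that group (0.0673, 0.0958 and 0.0962) and in 12 of the 22 fits without a tendon of another group (0.0512 to 0.0538). At 7D 2 mg/kg, Per1 was called when replicate 5 was left out (log2 fold change -1.32, edgeR adjusted p = 0.0217).

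Nr1d1 and Nr1d2 encode the REV-ERB nuclear receptors, which repress Arntl and Npas2. Nr1d2 stood at 327, 307 and 421 CPM in the 3 control tendons. Its 7-day levels were 100.4, 108, 91.0, 97.8 and 112 CPM at 0 mg/kg, 146, 133, 132 and 161 CPM at 2 mg/kg and 92.8, 139 and 129 CPM at 6 mg/kg. The 21-day levels were 152, 109, 129, 137 and 177 CPM at 0 mg/kg, 159, 172, 144, 173 and 154 CPM at 2 mg/kg and 156, 173, 164, 139 and 152 CPM at 6 mg/kg. No repaired tendon reached the control range, and the 7D 0 mg/kg group had the lowest mean. Nr1d2 was 3.45-fold lower at 7D 0 mg/kg (log2 fold change -1.79 ± 0.13, edgeR adjusted p = 7.86e-11) and 2.19-fold lower at 21D 2 mg/kg (-1.13 ± 0.13, adjusted p = 9.48e-08), the extremes of the 6 groups.

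Nr1d1 was 262, 278 and 188 CPM in the control tendons. The 7D 6 mg/kg tendons lay close together, with 58.0, 57.2 and 59.6 CPM, while the 7D 2 mg/kg tendons spread over 113, 83.6, 156 and 78.2 CPM. The 7D 0 mg/kg tendons held 68.7, 79.0, 52.7, 71.6 and 79.4 CPM. All repaired tendons lay below the control range. At 21 days the 21D 0 mg/kg tendons held 114, 57.9, 101, 114 and 103 CPM, the 21D 2 mg/kg tendons 102, 135, 76.6, 108 and 135 CPM and the 21D 6 mg/kg tendons 75.5, 89.6, 90.7, 79.6 and 88.4 CPM, and the highest repaired tendon of all was replicate 4 of the 7D 2 mg/kg group. The log2 fold change was -2.06 ± 0.25 at 7D 6 mg/kg (edgeR adjusted p = 1.56e-07) and -1.13 ± 0.21 at 21D 2 mg/kg (adjusted p = 4.71e-05), the largest and the smallest of the 6. In RefSeq on GRCr8, 3 of the 10 genes overlap a gene on the other strand. Nr1d1 shares 1061 bases with Thra, the thyroid hormone receptor alpha gene, Per2 shares 17565 bases with the long noncoding RNA gene LOC134480412, and Npas2 shares 919 and 2328 bases with the long noncoding RNA genes LOC120094671 and LOC134480361. The strand setting of the counting is not given, so reads from shared exonic bases cannot be told apart. Thra itself differed by log2 fold changes of -0.83 to -0.44 against control.

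Dbp and Tef encode PAR bZIP factors that carry clock time to output genes through D-boxes. Dbp stood at 362, 294 and 610.1 CPM in the 3 control tendons. Its 7-day levels were 59.6, 88.3, 66.8, 86.6 and 123 CPM at 0 mg/kg, 114, 115, 178 and 166 CPM at 2 mg/kg and 60.6, 113 and 74.0 CPM at 6 mg/kg. The 21-day levels were 129, 51.5, 147, 141 and 182 CPM at 0 mg/kg, 181, 230.1, 132, 169 and 188 CPM at 2 mg/kg and 104, 112, 150.0, 83.9 and 102 CPM at 6 mg/kg. The control tendons were uneven for Dbp, yet the highest repaired tendon, at 230.1 CPM, was below the lowest control. Dbp was 4.97-fold lower at 7D 0 mg/kg (log2 fold change -2.31 ± 0.30, edgeR adjusted p = 2.92e-07), 5.11-fold lower at 7D 6 mg/kg and 2.34-fold lower at 21D 2 mg/kg (-1.23 ± 0.30, adjusted p = 0.000841).

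Tef stood at 395, 332 and 449 CPM in the 3 control tendons. Its 7-day levels were 76.8, 93.4, 76.9, 86.9 and 104 CPM at 0 mg/kg, 109, 122, 144 and 144 CPM at 2 mg/kg and 74.3, 117 and 126 CPM at 6 mg/kg. The 21-day levels were 145, 75.8, 134, 121 and 173 CPM at 0 mg/kg, 167, 174, 122, 161 and 148 CPM at 2 mg/kg and 127, 159, 135, 112 and 125 CPM at 6 mg/kg. All repaired tendons lay below the control range, and the lowest were the 7D 0 mg/kg tendons, replicate 1 of the 7D 6 mg/kg group and replicate 2 of the 21D 0 mg/kg group. Tef was 4.47-fold lower at 7D 0 mg/kg (log2 fold change -2.16 ± 0.19, edgeR adjusted p = 7.97e-10) and 2.54-fold lower at 21D 2 mg/kg (-1.34 ± 0.19, adjusted p = 1.11e-06). When the 7 groups were ordered by mean level for each of the 10 genes, 8 of 60 neighbouring pairs had mean ± SD ranges that did not overlap. All 8 were among the 10 pairs with the control group, and 0 of the 50 pairs among repaired groups were separated in this way. Over all genes tested, 36.1% of the neighbouring pairs with control and 2.18% of those among repaired groups were separated.

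The scale and the tissue make-up of the control tendons moved with these differences. TMM scaling factors were 0.599 to 0.788 in control tendons and 0.950 to 1.10 in repaired tendons. With scaling by library size alone, the median of all genes shifted by 0.501 to 0.593 on the log2 scale, and all 10 genes kept their direction in all 6 comparisons. On that scale, all repaired tendons lay below all control tendons for Nr1d2, Tef and Ciart, and above them for Arntl and Npas2. Per2, Per3, Nr1d1 and Dbp, which were separated with TMM scaling, no longer were. The share of all genes separated on that scale was not computed. Per2 was then not called at 21 days (log2 fold changes -0.48, -0.17 and -0.31 at 0, 2 and 6 mg/kg, edgeR adjusted p = 0.062, 0.508 and 0.223), and Per1 was called in no group.

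Skeletal muscle share varied widely among repaired tendons. The 4 repaired tendons with the highest shares (5.28% to 9.23%, called muscle-rich) held 104 to 182 CPM of Dbp, and the 7 with shares of at most 0.0107% (muscle-poor) held 60.6 to 178 CPM, against 294 to 610.1 CPM in control tendons. Ciart was 1.35 to 3.04 CPM in the former, 1.89 to 6.17 CPM in the latter and 21.4 to 37.1 CPM in control tendons. Npas2 was 22.0 to 50.4 CPM, 15.8 to 38.3 CPM and 4.81 to 5.93 CPM in the same order. Nr1d2 was 152 to 177 CPM in the muscle-rich, 92.8 to 161 CPM in the muscle-poor and 307 to 421 CPM in the control tendons, and Tef was 127 to 173, 74.3 to 144 and 332 to 449 CPM. The median of the muscle-rich tendons was nearer the control median than that of the muscle-poor for 7 of the 10 genes (Per1, Per2, Per3, Nr1d1, Nr1d2, Dbp and Tef) and farther from it for Arntl, Npas2 and Ciart. The muscle-rich tendons were all from 21 days and the muscle-poor from 7 days at 2 or 6 mg/kg, so muscle share and day cannot be told apart between them.

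**Figure D3:**
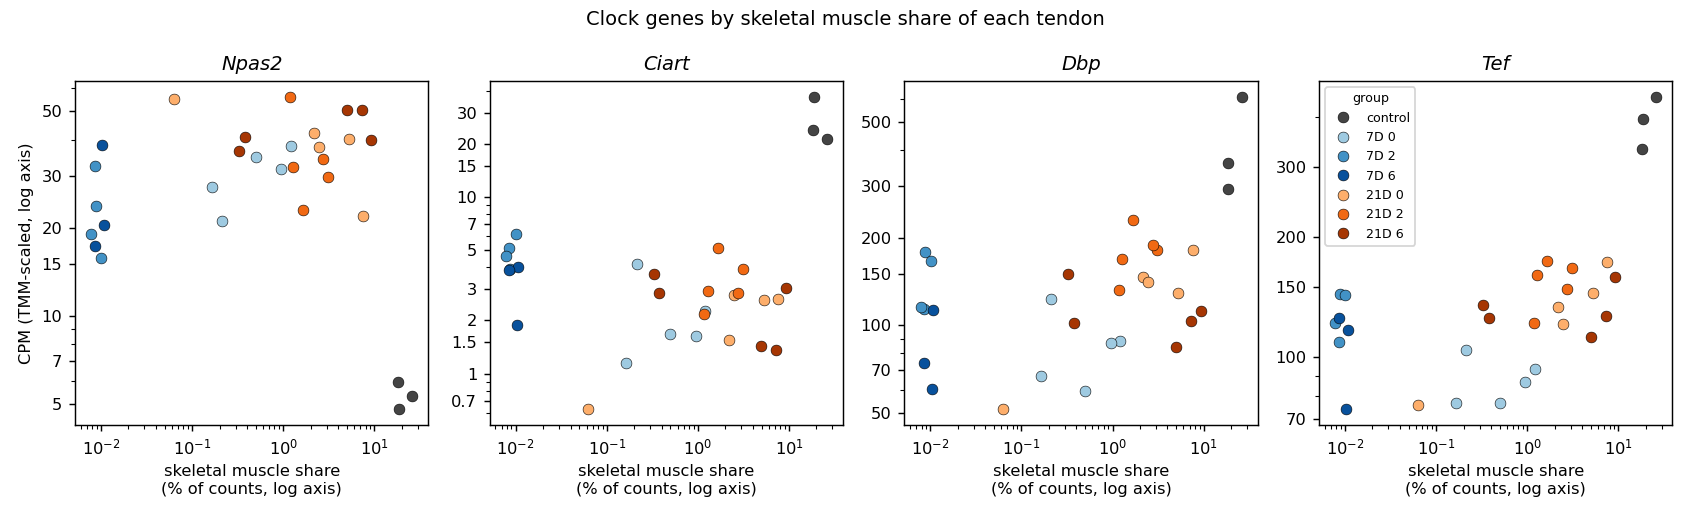
Level of Npas2, Ciart, Dbp and Tef in each tendon (CPM, log axis) against the share of its counts in 24 skeletal muscle genes (percent, log axis), coloured by group. The control tendons stand alone at 18.3% to 26.1%, while the repaired tendons span 0.00781% to 9.23% without reaching the control levels of any of the 4 genes.

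Across all 30 tendons, with group means removed, 0 of 10 genes had a correlation with log2 muscle share that passed adjustment over the 10 tests. The strongest was Tef (Pearson's r = 0.523, within-group permutation p = 0.0303, adjusted p = 0.19, and Spearman's rho = 0.348, permutation p = 0.0673, adjusted p = 0.381, n = 30, and r = 0.536 without the 2 tendons farthest from the median share). Per3 also had an unadjusted p under 0.05 (r = 0.446, permutation p = 0.0457). With log2 muscle share as a covariate, all 60 log2 fold changes against control kept their direction. The calls then were 9, 0, 1, 10, 7 and 9 of the 10 genes in the order above, and the calls over all genes fell from 8757 to 1343 at 7D 2 mg/kg and from 8529 to 1421 at 7D 6 mg/kg. With the share in percent as a covariate, an alternative added after the data were seen, 1, 0, 1, 1, 0 and 2 genes were called, and 338 to 742 of all genes. Of the 60 log2 fold changes, 54 kept their direction with the percent covariate and 6 reversed, among them Arntl at 7D 2, 7D 6 and 21D 2 mg/kg (-0.65, -0.24 and -0.55). At 7D 0 mg/kg, the log2 fold change with that covariate was -3.77 for Ciart (-3.65 without it), -1.81 for Nr1d1 (-1.79), 1.95 for Npas2 (2.52), -1.10 for Tef (-2.16) and 0.08 for Arntl (1.78), and only Ciart was called (edgeR adjusted p = 0.0402). No repaired tendon had the share of a control tendon, so muscle share and repair cannot be told apart in the comparisons with control.

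Among repaired tendons, fewer of the clock genes were called with time than against control. The median log2 fold change of the 10 genes from 7 to 21 days was 0.33, 0.13 and 0.38 at 0, 2 and 6 mg/kg. Over all genes tested it was 0.009, 0.001 and 0.0004. At 0 mg/kg, 2 of the 10 genes were higher at 21 days than at 7 days, and 0 were lower, where 2.88% of all genes tested were higher and 2.47% lower. Nr1d2 was 102 ± 8.27 CPM (SD, n = 5) at 7 days and 141 ± 25.5 CPM (SD, n = 5) at 21 days, a log2 fold change of 0.47 ± 0.12 (edgeR adjusted p = 0.0245). Tef was 87.6 ± 11.6 CPM at 7 days and 129.7 ± 35.6 CPM at 21 days, a log2 fold change of 0.57 ± 0.17 (edgeR adjusted p = 0.0479). Dbp and Nr1d1 had log2 fold changes of 0.61 and 0.48 with adjusted p of 0.159 and 0.117 (edgeR).

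Muscle share moved with time in these groups, and was 0.164% to 1.21% at 7 days (median 0.500%) and 0.0625% to 7.58% at 21 days (median 2.46%). Both calls were lost with log2 muscle share as a covariate, where Nr1d2 had a log2 fold change of 0.37 (edgeR adjusted p = 0.0997) and Tef of 0.36 (adjusted p = 0.234), and with the percent covariate (0.34, adjusted p = 0.0746, and 0.39, adjusted p = 0.167).

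Both of these calls also depended on single tendons. Nr1d2 was not called without replicate 3 or 4 of the 7D 0 mg/kg group or replicate 1 or 5 of the 21D 0 mg/kg group (edgeR adjusted p 0.0603 to 0.0948), and of the 10 fits that left out a tendon of either group Tef was called in 1, that without replicate 2 of the 21D 0 mg/kg group (adjusted p in the other 9 of 0.0556 to 0.174). The spread is estimated over all groups, so that the other 20 tendons also bear on the tests. Leaving out 1 of those, Nr1d2 was called in all 20 fits and Tef in 10 (adjusted p 0.0335 to 0.0556). Without that replicate 2, which had the lowest Dbp, Tef, Nr1d1 and muscle share (0.0625%) of its group, 4 genes were called, Nr1d2 (log2 fold change 0.55), Tef (0.71), Dbp (0.82) and Nr1d1 (0.62). At 2 mg/kg and 6 mg/kg, 0 of 10 genes were called higher or lower at 21 days (edgeR), 1 and 3 had an unadjusted p under 0.05, limma called 0 in both, and DESeq2 called 0 and 2. Of all genes tested, edgeR called 7.09% and 8.54% higher and 5.98% and 4.55% lower in these comparisons. These were 1641 and 1643 genes, where DESeq2 called 2289 and 2221. Npas2 had the largest of these differences, with a log2 fold change of 0.62 ± 0.27 (edgeR adjusted p = 0.124) for the 2 mg/kg dose and of 0.78 ± 0.29 (edgeR adjusted p = 0.0804) for the 6 mg/kg dose, and without replicate 1 of the 7D 6 mg/kg group the latter was called (1.21, adjusted p = 0.0287). Nr1d2 had the smallest adjusted p at 6 mg/kg (log2 fold change 0.39, edgeR adjusted p = 0.0666). It was called without control replicate 4 (edgeR adjusted p = 0.0476) and without replicate 2 or 5 of the 21D 0 mg/kg group (0.0445 and 0.048).

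The dose of the HPGDS inhibitor was tested within each day. At 7 days, 0 of 10 genes were called across the 3 doses (edgeR quasi-likelihood F test), as against 2.05% of all genes tested, 5 had an unadjusted p under 0.05, limma called 0 and DESeq2 called 2. Of all genes, edgeR called 258, limma 210 and DESeq2 572. Nr1d1 came nearest (adjusted p = 0.0535), and it was called in 5 of 30 leave-one-out fits, those without replicate 3 or 5 of the 7D 2 mg/kg group (adjusted p = 0.035 and 0.0362), control replicate 4 (0.0398), replicate 2 of the 21D 0 mg/kg group (0.0181) or replicate 3 of the 21D 2 mg/kg group (0.039). Nr1d2 was called as well without control replicate 4 (adjusted p = 0.0495) and without replicate 2 of the 21D 0 mg/kg group (0.0491). Nr1d1 was 70.3 ± 10.9 CPM at 0 mg/kg, 108 ± 35.6 CPM at 2 mg/kg and 58.3 ± 1.24 CPM at 6 mg/kg (SD), so the levels did not follow the order of the doses. In the pairwise comparison of 2 with 0 mg/kg, Nr1d2 was the only member called (0.49 ± 0.13, edgeR adjusted p = 0.0346), where 0.908% of all genes tested were higher and 1.45% lower. In that comparison limma also called 1 of the 10 genes and DESeq2 called 4. Over all genes, edgeR called 296, limma 280 and DESeq2 710. The edgeR call of Nr1d2 was lost in 5 of the 9 fits that left out a tendon of either group, those without replicate 2, 3 or 4 of the 7D 0 mg/kg group or replicate 2 or 5 of the 7D 2 mg/kg group (adjusted p 0.0554 to 0.15). The muscle shares of these groups did not overlap, with 0.164% to 1.21% at 0 mg/kg and 0.00781% to 0.0101% at 2 mg/kg, so dose and muscle share cannot be told apart here. With log2 muscle share as a covariate, 3 members were called, Nr1d2 (log2 fold change 0.76, edgeR adjusted p = 0.00686), Tef (1.05, adjusted p = 0.0054) and Nr1d1 (adjusted p = 0.0278), and with the percent covariate Nr1d2 (0.51, adjusted p = 0.00615) and Tef (0.59, adjusted p = 0.0304). The calls over all genes rose as well, from 296 to 1344 with log2 muscle share and to 547 with the percent covariate. Between 6 and 2 mg/kg at 7 days, Nr1d1 had a log2 fold change of -0.89 ± 0.23 (edgeR adjusted p = 0.219), and 0 of 10 genes were called by edgeR or limma and 1 by DESeq2, with 2 unadjusted p under 0.05 and 0% of all genes called by edgeR. DESeq2 called 69 of all genes there.

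Ciart had the largest log2 difference between 2 and 0 mg/kg at 7 days, at 1.18 ± 0.39 with an approximate normal 95% interval of 0.42 to 1.95 (edgeR adjusted p = 0.111). Between 6 and 0 mg/kg at 7 days, 0 of 10 genes were called by edgeR, limma or DESeq2 and 0 had an unadjusted p under 0.05, with 0% of all genes higher and 0.39% lower. The interval for Dbp in that comparison was -0.64 to 0.56 on the log2 scale, and for Nr1d2 -0.03 to 0.50. At 21 days, 0 of 10 genes were called across the doses by edgeR, limma or DESeq2, with 1 unadjusted p under 0.05 in edgeR (Dbp). Of all genes, edgeR called 0% and DESeq2 called 138. Dbp at 21 days was 129.9 ± 48.1 CPM at 0 mg/kg, 180.0 ± 35.4 CPM at 2 mg/kg and 110.3 ± 24.4 CPM at 6 mg/kg (SD, n = 5 each). The change of the dose effect between 7 and 21 days was called for 0 of 10 genes by each of the 3 tools, none had an unadjusted p under 0.05 in edgeR, and 0.39% of all genes were called.

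Within groups, single tendons departed from their group mean in a coordinated way. Arntl was compared with the other 9 genes after subtraction of the group mean of log2 CPM, over 30 tendons, with permutation within groups. Tendons with more Arntl than their group held more Npas2 (Pearson's r = 0.768, adjusted p = 0.000135, and Spearman's rho = 0.692, adjusted p = 0.000675, by permutation, n = 30). They held less Tef (r = -0.857, adjusted p = 3e-05, and rho = -0.86, adjusted p = 4.5e-05, by permutation, n = 30), less Dbp (r = -0.825, adjusted p = 3e-05, and rho = -0.848, adjusted p = 4.5e-05) and less Nr1d2 (r = -0.824, adjusted p = 3e-05, and rho = -0.761, adjusted p = 0.00039). The unadjusted permutation p of these 3 values of r was 1e-05, the smallest that 100000 permutations can give.

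**Figure D4:**
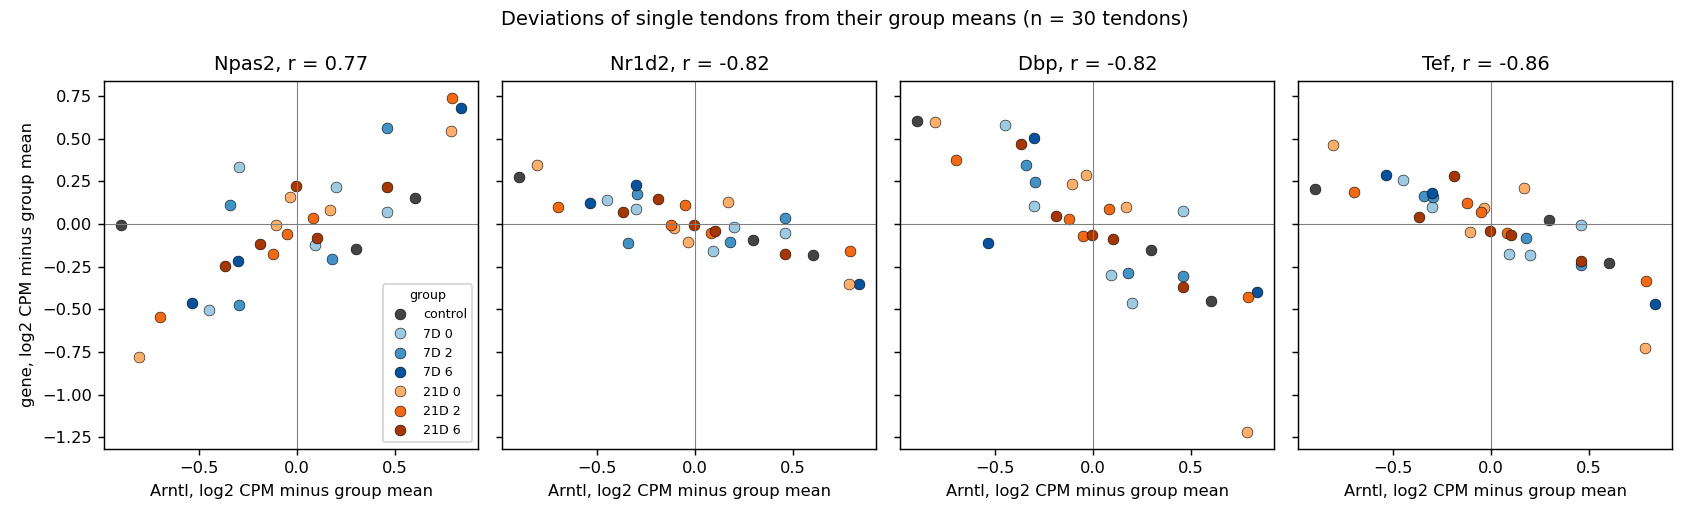
Deviation of each tendon from its group mean in log2 CPM, for Arntl (horizontal) and Npas2, Nr1d2, Dbp or Tef (vertical), coloured by group (n = 30). Npas2 deviates in the same direction as Arntl (r = 0.77), and Nr1d2, Dbp and Tef in the opposite direction (r = -0.82, -0.82 and -0.86).

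Per3, Ciart and Per2 were also lower where Arntl was higher, with r of -0.631, -0.592 and -0.557 (permutation, adjusted p = 0.00352, 0.00352 and 0.00774) and rho of -0.594, -0.54 and -0.553 (adjusted p = 0.00549, 0.00799 and 0.00963). For Per1 and Nr1d1, r was -0.325 and -0.293 with adjusted p of 0.132 and 0.162 (permutation), and rho was -0.321 and -0.241 (adjusted p = 0.149 and 0.234). The 2 tendons farthest from the median of Arntl were control replicates 4 and 2. Without them r was 0.853 for Npas2, -0.877 for Tef, -0.798 for Dbp, -0.79 for Nr1d2, -0.813 for Per3, -0.735 for Per2, -0.73 for Ciart, -0.494 for Nr1d1 and -0.445 for Per1. The 27 repaired tendons alone give the same comparison, since the control tendon that is left equals its own group mean. In it, all 9 relations passed adjustment (adjusted p 6e-05 to 0.0311, permutation).

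Scaling and tissue make-up were changed for these relations as well. With scaling by library size alone, 5 of 9 relations passed, and Per2 and Per3 no longer did (r = -0.372 and -0.433, adjusted p = 0.143 and 0.103, permutation). With the log2 muscle share removed beside the group means, chosen after the data were seen, the same 7 relations passed, and r was 0.766 for Npas2, -0.882 for Tef, -0.818 for Dbp and -0.818 for Nr1d2.

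All 10 genes were also compared in pairs, as a description without a test. Each of the 16 pairs of Arntl or Npas2 with the other 8 genes had a negative r, from -0.857 to -0.222. Among those other 8 genes, 27 of 28 pairs had a positive r and 1 a negative r, and the 15 pairs that left out Per1 and Nr1d1 ran from 0.491 to 0.857. These tendons share their scaling factors across genes, and they share no label of collection time.

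**Figure D5:**
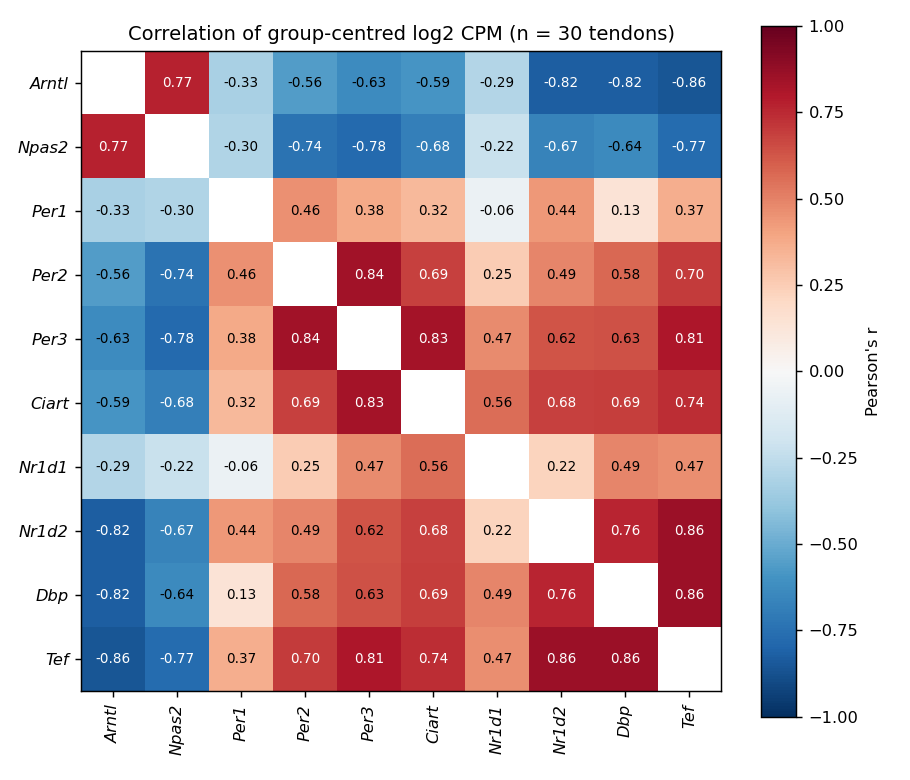
Pearson's r between the 10 clock genes over 30 tendons, from log2 CPM with group means removed. Red is positive and blue negative. Arntl and Npas2 form one block with negative values against the other 8 genes (-0.857 to -0.222).

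The log2 ratio of Dbp to Arntl counts within each library does not depend on scaling between libraries. It ran from 4.75 to 7.31 in control tendons (median 5.35). In repaired groups the median was 1.24 at 7D 0 mg/kg, 3.12 at 7D 2 mg/kg, 2.38 at 7D 6 mg/kg, 2.57 at 21D 0 mg/kg, 3.52 at 21D 2 mg/kg and 2.02 at 21D 6 mg/kg. The highest repaired ratio was 4.59, in a 21D 2 mg/kg tendon, below all 3 controls. The lowest was 0.24, in the 21D 0 mg/kg group, so that repaired tendons of 1 group spread over 0.24 to 3.66. Dbp and Arntl each differed from control in opposite directions above, so the separation of their ratio is no separate result. The share of other gene pairs that separate in this way was not computed. Control and repaired tendons also differed in muscle share, which the ratio does not remove.

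A list of 18 further clock genes was examined by counts, and 16 of them were listed and tested. Against control, 13, 10, 11, 11, 11 and 8 of the 16 were called in the order of the groups above, of which 3, 2, 2, 3, 3 and 1 were higher, while of all genes tested 71.4%, 69.7%, 67.9%, 65.9%, 69.1% and 64.1% were called. The counts at 7D 2, 21D 2 and 21D 6 mg/kg were below the share of all genes. The median log2 fold change of the 16 ran from -0.65 at 7D 0 mg/kg to -0.27 at 21D 6 mg/kg. Lower in all 6 groups were Cry1 and Cry2, the cryptochrome partners of PER, Bhlhe40, an E-box repressor, Hlf, the third PAR bZIP factor, Btrc, a ubiquitin ligase subunit that marks PER for degradation, and Usp2, a deubiquitinase under clock control.

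Usp2 had the largest of these differences, with 139 ± 30.8 CPM in control tendons (SD, n = 3), 3.17 ± 0.328 CPM at 7D 6 mg/kg and 18.7 ± 13.7 CPM at 21D 6 mg/kg (log2 fold changes -5.45 and -2.89). Hlf fell from 7.17 ± 1.13 CPM in control tendons to 0.936 ± 0.205 CPM at 7D 0 mg/kg (log2 fold change -2.93, edgeR adjusted p = 5.06e-07). Cry1 differed by -1.08 to -0.72 and Cry2 by -0.64 to -0.39 on the log2 scale, Bhlhe40 by -1.43 to -0.74 and Btrc by -2.31 to -1.92. Rora, the activator that competes with REV-ERB at ROR elements, was called lower in 5 groups (log2 fold changes -1.29 to -0.56 where called). Timeless, which also works at replication forks, was higher in all 6 groups (0.59 to 1.22), and Arntl2, the paralog of Arntl, in 5 (1.21 to 1.78 where called). Clock, the usual partner of Arntl, was at 71.6 ± 22.2 CPM in control tendons and had log2 fold changes of -0.03 to 0.33, called in 1 group.

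The genes most like Arntl over the 30 tendons, by Pearson's r of group-centred log2 CPM among all genes tested other than the 10, were Adamts4 (0.776), an aggrecan-cleaving protease, Clock (0.773), LOC108348180 (0.766), RGD1311595 (0.762) and Kctd11 (0.734). The genes most like Nr1d1 were Palm (0.877), RGD1310507 (0.821), Gdf10 (0.754), a growth factor of the TGF-beta superfamily, Clec2l (0.742) and Eef2 (0.713), a translation elongation factor. These are the highest of all values and carry no test.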

How the data were processed

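RNA of plantaris tendons was sequenced as single-end reads on an Illumina instrument. The authors trimmed reads with fastp, aligned them with STAR to the rat genome rn6 and counted reads in exons against an Ensembl annotation, and they removed samples of poor read quality. The deposited table holds raw counts for 13124 genes in 30 tendons. A further deposited table holds the authors' fold changes, p-values, false discovery rates and average log2 CPM, which were not used, and their chromosome and gene width columns, an other unit in bases, which served only to identify genes. Gene overlaps and promoters came from RefSeq (GRCr8) by symbol, and no coordinates were converted.

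Counts were fitted with edgeR 4.0.16 in R 4.3.3 (TMM factors, 1 mean per group over all 30 tendons, quasi-likelihood tests, Benjamini-Hochberg adjustment over 12558 genes that averaged 3 CPM or more in any group, called at 0.05). CPM values are TMM-scaled, and correlations used log2 CPM with a prior count of 2. Groups and replicate numbers came from the sample titles. The members and gene lists were chosen with earlier results of these data known. Named were all 10 members, further clock genes called in at least 5 of 6 repaired groups (1 of which is counted in its list but not reported by name here), and the 5 genes most like Arntl and Nr1d1, with marker lists as sums, and Thra outside this rule for its overlap with Nr1d1. Alternatives were RLE scaling, library size only, no filter, only the groups compared, limma 3.58.1, DESeq2 1.42.0, a muscle share covariate, a replicate block and leaving out each tendon. On simulated counts for 7D 0 mg/kg against control (12172 genes), edgeR called 29.9%, 59.7% and 92.4% of genes changed 1.5-fold, 2-fold and 4-fold, and 6.2% of its calls were unchanged genes. The simulation changed only 67, 67 and 66 genes by these folds and held no difference in muscle share. In the data 71.4% of genes were called in this comparison, so the simulated rates may not carry over to it. No pair of libraries in a group agreed within sampling noise (lowest chi-square per gene 29.6).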

Additional observations from a re-analysis of the deposited data

Results flagged for a closer look

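Nr1d1 in replicate 2 of the 21D 0 mg/kg group was at 57.9 CPM, far from the other 4 tendons of its group, the nearest of which was at 101 CPM. The gap was 0.768 of the group's range. This tendon also had the lowest skeletal muscle share of its group, 0.0625% against 2.17% to 7.58% in the others. Whether this bears on its clock gene levels was not tested. This was 1 value flagged among 50 sets of 4 or 5 tendons tested (10 genes in 5 groups), and chance flags about 1 in 20 such sets.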

How the results depend on the processing

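Over 63 fold changes of single genes and 2331 alternative fits of them, 2189 kept their direction and their side of the threshold, 135 kept their direction and lost the call, 1 gained it and 6 reversed. RLE scaling and DESeq2 changed none of the 63. With reversed values left aside, limma lost the call of 2, library size only of 7, the log2 muscle share covariate of 23 and the percent covariate of 51. The 6 reversed values came with the percent covariate, for Per1 at 7D 0, 7D 2 and 21D 6 mg/kg (0.22, 0.24 and 0.030) and for Arntl at 7D 2, 7D 6 and 21D 2 mg/kg (-0.65, -0.24 and -0.55). Those of Arntl also lost their call, and those of Per1 had none in the main fit. Counts of called genes against control moved to 0 and 1 at 7D 2 and 7D 6 mg/kg with log2 muscle share, and to 1, 0, 1, 1, 0 and 2 with the percent covariate. Leaving out 1 tendon gave 9 to 9, 8 to 10, 9 to 10, 9 to 10, 9 to 10 and 9 to 9. For 21 against 7 days at 0 mg/kg, the count of 2 became 1 with library size only or limma, 0 with only the groups compared, either muscle covariate or a 1.5-fold minimum, and 0 to 4 when a tendon was left out. At 6 mg/kg, the count of 0 became 1 with only the groups compared, 2 with DESeq2 and 0 to 1 when a tendon was left out. DESeq2 called 2221 of all genes there, against 1643 in the main fit. Across doses at 7 days, it became 3 with log2 muscle share, 2 with the percent covariate, 2 with DESeq2 and 0 to 2 when a tendon was left out. The calls over all genes went from 258 to 889 with log2 muscle share, 409 with the percent covariate and 572 with DESeq2. Apart from what the covariates adjust for, the cause was not tested.

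The replicate numbers did not pair the tendons (r above 0.1 in 29 of 76 same-number pairs, range -0.701 to 0.681). The replicate block lost the call of 1 of the 63 fold changes, Per1 at 21D 2 mg/kg (log2 fold change -0.91, edgeR adjusted p = 0.0768), gave 1 call for 21 against 7 days at 6 mg/kg and changed no other count by over 1.5 times. Depth limits Ciart most, since its lowest tendon was at 0.629 CPM.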
